A study of Rattus norvegicus with 8 samples.

Results

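The cadherins and protocadherins of the rat hippocampus were taken as every gene symbol of the deposited table that begins with Cdh and a digit or with Pcdh. This gave 58 genes of 13272, made up of 18 Cdh and 40 Pcdh symbols, and where a symbol had several transcripts the most abundant one stood for it. Whole hippocampi of 8 adrenalectomized (ADX) rats were profiled by RNAseq, 4 infused with vehicle and 4 with corticosterone (CORT). All 8 had lost both adrenal glands and carried a jugular cannula, so both groups lacked adrenal corticosterone, and both had drunk corticosterone in saline during recovery and plain saline before the experiment. At ZT 2, 2 h after lights on, the vehicle group received 0.45% saline for 30 min and the CORT group a corticosterone-cyclodextrin complex at 0.75 mg/mL for the same time, with collection 2 h after the start. The labels give Sprague-Dawley rats of 3 to 4 months, whereas the study's methods give male Lister hooded rats of a younger age, and neither difference could be settled here.

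The authors deposited 1 FPKM value per group and transcript (fragments scaled to transcript length and library size), and no value of a single rat was used. The spread between rats is therefore unknown, no difference below was tested, and the depth behind a value cannot be given. Each log2 ratio divides the CORT value by the vehicle value, and compares the authors' group values only. Of the 58 genes, 55 reached 1 FPKM in one or both groups and were compared, among them Pcdhga1 through its CORT value alone and Pcdhb11 and Pcdhb12 through their vehicle value alone. Pcdhb10, Pcdhga9 and Pcdh15 stayed under that level, with 0.953, 0.751 and 0.829 FPKM with vehicle and 0.881, 0.843 and 0.960 FPKM with CORT.

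Cadherins are calcium-dependent adhesion proteins of the cell surface. Classical cadherins hold cells and synapses together through binding between like molecules, and their cytoplasmic tails bind catenins, which link them to actin. Protocadherins lack the catenin-binding tail. The non-clustered ones, sorted into delta-1 and delta-2 classes, regulate adhesion, dendrites and axon sorting, whereas the alpha, beta and gamma protocadherins are encoded in a tandem array of variable exons, of which each neuron uses only some, giving it a surface identity by which its own branches avoid each other. In the hippocampus these proteins take part in the matching of axons to their target layers, in spine structure and in synaptic plasticity.

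Most of the beta protocadherin promoters that were found share an element, which is shown here. Promoters of 42 of the 58 genes were found in RefSeq sequence of the GRCr8 build, spanning 250 bases before to 50 bases after the start of transcription. The octamer GTGGCGCT, which contains the CGCT core known from clustered protocadherin promoters, was searched on both strands. It was chosen after these promoters had been read. It was present in 10 of 11 beta promoters and in 0 of 11 gamma promoters, against 1.14% of all 27457 promoters. It lay between 51 and 207 bases before the start, within 100 bases in 9 of the 10. The shorter CGCT, which the octamer contains, was in 10 of 11 beta and 10 of 11 gamma promoters but also in 62.4% of all promoters. The sequences are 30 bases of the plus strand of chromosome 18 from 6 beta genes, 3 whose FPKM was higher and 3 whose FPKM was lower with CORT, with the octamer in capitals.
Pcdhb8 (chr18:29339260-29339289): ggacacacgGTGGCGCTgcagtctaaggat
Pcdhb3 (chr18:29285606-29285635): gaacgcatgGTGGCGCTgttgactaagacg
Pcdhb19 (chr18:29478766-29478795): agacacatgGTGGCGCTgcaggataatgtt
Pcdhb5 (chr18:29302406-29302435): gaacgcaggGTGGCGCTgcaggctaagatt
Pcdhb9 (chr18:29379250-29379279): agacacaggGTGGCGCTgcaggctaagatt
Pcdhb12 (chr18:29413650-29413679): ggacgcttgGTGGCGCTgcaggctaagaat
The exact palindrome of the glucocorticoid response element, TGTTCT preceded by its reverse complement with any 3 bases between, was searched. It was in 0 of the 42 promoters and in 2 of all 27457, so rare that its absence from the 42 carries no information. Imperfect forms of the palindrome were not searched. The half-site TGTTCT alone, on either strand, was in 12 of the 42, or 28.6%, against 20.1% of all promoters. These matches describe letters in a short window, and elements farther away were not searched.

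Taken by the most abundant transcript of each symbol, no cadherin or protocadherin passed 1.5-fold in either direction. A lesser transcript of Pcdhac1 did, as given below. Of the 12988 symbols that reached 1 FPKM, 5.51% passed 1.5-fold and 1.93% passed 2-fold. The extremes were Pcdhb8, 1.46-fold higher with CORT, and Cdh5, whose CORT level was 0.694 of the vehicle level. The small differences leaned to one side: 40 of the 55 genes were higher with CORT, 72.7%, against 54.6% of all symbols, and 15 were lower, against 45.4% of all symbols. The median log2 ratio of the 55 was 0.12, against 0.02 for all symbols. In 6 of the 55 genes the higher group value exceeded the lower by at least 25%, against 14.7% of all symbols. Those were Pcdhb8, Pcdhga1, Pcdhga3, Pcdhb13 and Cdh13, higher with CORT, and Cdh5, lower. For scale, 8 glucocorticoid targets, chosen with their results known and so no independent evidence, were over 1.5-fold higher with CORT, with a median log2 ratio of 0.94.

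**Figure D1:**
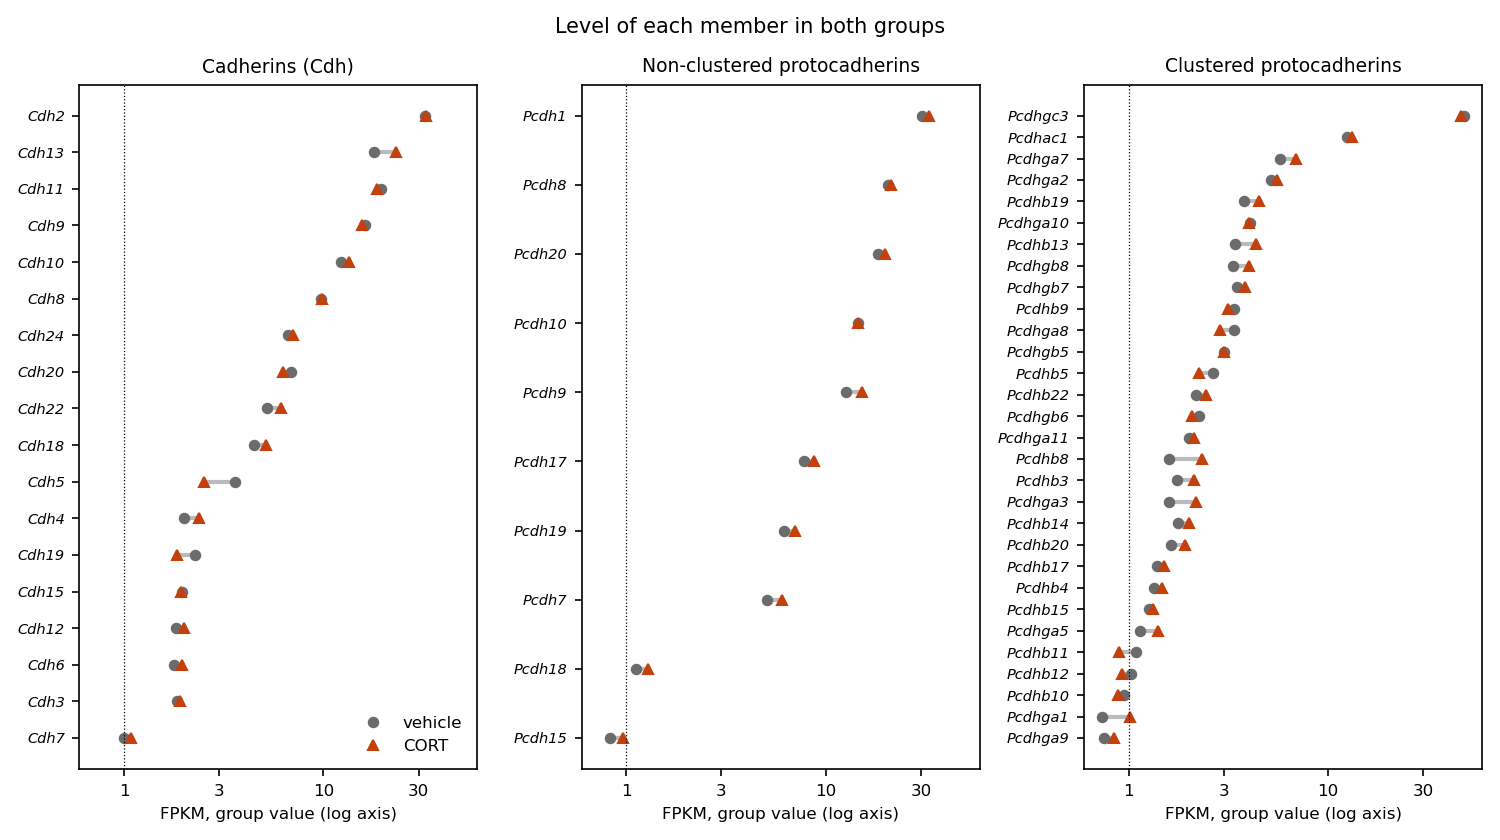
Group FPKM of each gene (log axis) with vehicle (grey circles) and CORT (orange triangles), 1 value per group without error bars because no value per rat was used. The dotted line marks 1 FPKM, and the markers of a gene lie close together beside the range of levels from under 1 to 48.0 FPKM.

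Levels differed far more between genes than between groups, as the plot of levels shows. FPKM is scaled for transcript length, so levels can be set side by side as a rough guide. Without the spread between rats no order between neighbouring genes can be called a difference. Levels of clustered protocadherins, Pcdhgc3 among them, are less comparable, since their gene models and the division of shared reads are uncertain, as described below. Cdh2, the N-cadherin of excitatory synapses, had the highest level of the Cdh genes, 32.2 FPKM in vehicle rats and 32.7 FPKM in CORT rats. Below it came Cdh13 and Cdh11, then Cdh9, a cadherin of the synapses that mossy fibres form in CA3, with 16.2 FPKM in vehicle rats and 15.7 FPKM in CORT rats. Cdh10 followed with 12.3 FPKM in vehicle rats and 13.4 FPKM in CORT rats. These levels differed between the groups by at most 0.13 on the log2 scale for Cdh2, Cdh11, Cdh9 and Cdh10, and by more for Cdh13 only. Among the protocadherins, Pcdhgc3 was highest, with 48.0 FPKM in vehicle rats and 46.3 FPKM in CORT rats, followed by Pcdh1, Pcdh8, Pcdh20 and Pcdh10. The median of the mean levels was 4.83 FPKM for the 17 classical cadherins, 13.9 FPKM for the 9 non-clustered and 2.23 FPKM for the 28 clustered protocadherins.

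The 17 classical cadherins, those of type I and type II, stood closer to 0 than the 37 protocadherins. The median log2 ratio was 0.05 for classical cadherins and 0.12 for protocadherins, a difference of -0.08. Of the classical cadherins 11 were higher and 6 lower with CORT, and of the protocadherins 28 were higher and 9 lower. Over all symbols 54.6% were higher. The ranges overlapped widely, from -0.53 to 0.25 for classical cadherins and from -0.30 to 0.54 for protocadherins, and since genes are not replicates no p-value is given. Summed over genes, classical cadherins amounted to 129 FPKM in vehicle rats and 131 FPKM in CORT rats. The protocadherins summed to 241 FPKM in vehicle rats and 257 FPKM in CORT rats.

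**Figure D2:**
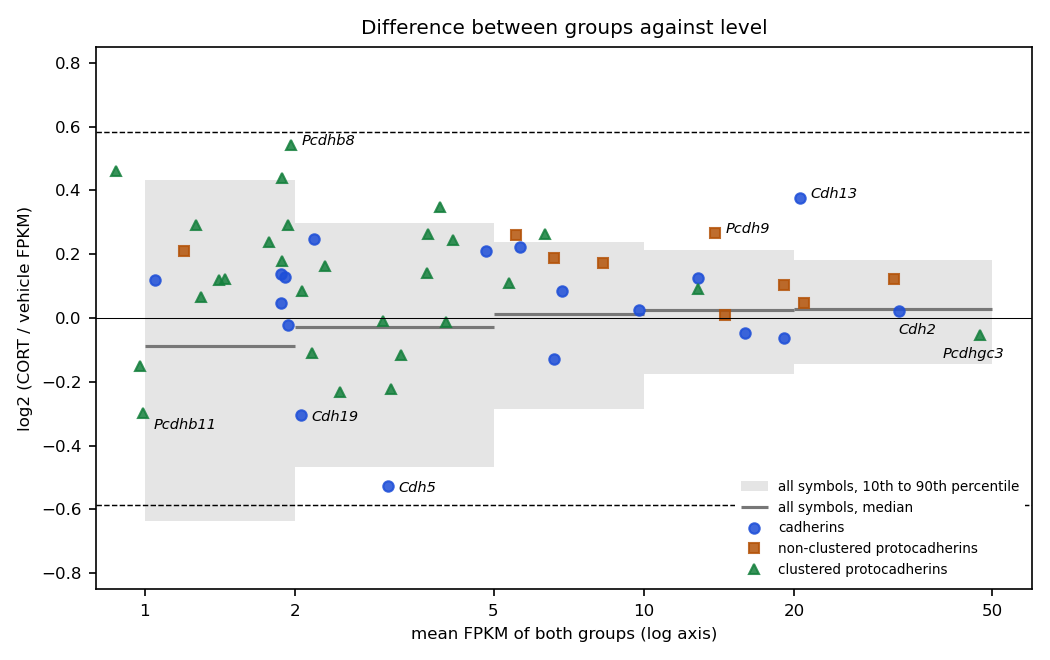
Log2 ratio of CORT over vehicle FPKM of each gene against its mean FPKM (log axis), with cadherins as blue circles, non-clustered protocadherins as brown squares and clustered protocadherins as green triangles. Grey bands and lines give the 10th to 90th percentile and the median of all symbols in 5 ranges of level, and dashed lines mark 1.5-fold, which no gene crosses.

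Among all symbols the ratio depended on the level. Between 1 and 2 FPKM 40.9% of all symbols were higher with CORT, with a median log2 ratio of -0.09, and between 20 and 50 FPKM 60.3% were. The clustered protocadherins between 1 and 2 FPKM did not share that lean: 9 of 9 were higher, with a median of 0.24. However, Pcdhb11 and Pcdhb12, with means just under 1 FPKM, were lower. Classical cadherins between 1 and 2 FPKM did not share it either, with 4 of 5 higher and a median of 0.12. Between 2 and 5 FPKM 6 of 12 clustered protocadherins were higher, against 45.3% of all symbols. Of the 52 genes whose mean lay between 1 and 50 FPKM, 7 were above the 90th percentile of all symbols of like level and 1, Cdh5, was below the 10th. That leaves 44 within the range that holds most genes of their level.

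The type I cadherins are Cdh2 and its closest relatives. Cdh4, the retinal R-cadherin, was at 1.99 FPKM in vehicle rats and 2.37 FPKM in CORT rats, a log2 ratio of 0.25 and the largest of the classical genes. Cdh3 and Cdh15, the P-cadherin of epithelia and the M-cadherin of muscle, were each under 2 FPKM in both groups. Cdh2 itself had a log2 ratio of 0.02, so the most abundant cadherin was almost level between the groups.

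Of the 13 type II cadherins 8 were higher with CORT, or 61.5%, against 54.6% of all symbols, and 5 were lower. Cdh22 was at 5.22 FPKM in vehicle rats and 6.09 FPKM in CORT rats, a log2 ratio of 0.22. Cdh18 was at 4.48 FPKM in vehicle rats and 5.18 FPKM in CORT rats, a log2 ratio of 0.21. Cdh6 was at 1.78 FPKM in vehicle rats and 1.96 FPKM in CORT rats, a log2 ratio of 0.14. These are neuronal cadherins with restricted patterns over brain nuclei, and their differences were modest beside the range of all symbols. Cdh24, Cdh7, Cdh12, Cdh10 and Cdh8 had log2 ratios between 0.02 and 0.13. Cdh11 and Cdh9 lay slightly below 0, at -0.06 and -0.05. Cdh20, at 6.89 FPKM in vehicle rats and 6.30 FPKM in CORT rats, had a log2 ratio of -0.13.

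Cdh5, the VE-cadherin that joins endothelial cells, was the gene furthest below vehicle, at 3.62 FPKM in vehicle rats and 2.51 FPKM in CORT rats, a log2 ratio of -0.53. The other endothelial markers were lower too, 9 of the 10 with at least 1 FPKM, against 45.4% of all symbols. The median log2 ratio of the 10 was -0.25, and they summed to 117 FPKM in vehicle rats and 98.6 FPKM in CORT rats. In whole tissue, fewer endothelial cells and less RNA per cell cannot be told apart. Cdh19, found in glia of the Schwann and oligodendrocyte lineages, was at 2.27 FPKM in vehicle rats and 1.84 FPKM in CORT rats, a log2 ratio of -0.30. Of the 12 oligodendrocyte markers 10 were lower, with a summed level of 5809 FPKM in vehicle rats and 4853 FPKM in CORT rats, and of the 9 markers of their precursors 5 were lower, with 327 FPKM in vehicle rats and 295 FPKM in CORT rats, or 187 and 183 FPKM without Bcas1. The part of these cells in the levels of Cdh5 and Cdh19 was not tested.

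Cdh13, or T-cadherin, is the atypical member held to the membrane by a lipid anchor without a cytoplasmic tail, and is known from GABA synapses and blood vessels. Its main transcript was at 17.9 FPKM in vehicle rats and 23.2 FPKM in CORT rats, a log2 ratio of 0.38, above the 90th percentile of 0.18 for all symbols between 20 and 50 FPKM. Its other transcript went the other way, with 5.85 FPKM in vehicle rats and 5.37 FPKM in CORT rats. Summed over both, Cdh13 was at 23.7 FPKM in vehicle rats and 28.6 FPKM in CORT rats, a log2 ratio of 0.27. The main transcript made up 75.4% of that sum with vehicle and 81.2% with CORT. In rn6 the gene covers chr19:50848736-51972103, the longest locus of the 58 genes at 1123 kb.

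All 9 non-clustered protocadherins over 1 FPKM were higher with CORT, as were 54.6% of all symbols. Log2 ratios of the 9 ran from 0.01 to 0.27, with a median of 0.17. Their sum was 117 FPKM in vehicle rats and 127 FPKM in CORT rats. Of the delta-1 class, Pcdh9 was at 12.6 FPKM in vehicle rats and 15.2 FPKM in CORT rats, a log2 ratio of 0.27. Pcdh7 was at 5.05 FPKM in vehicle rats and 6.05 FPKM in CORT rats, a log2 ratio of 0.26. Pcdh9 and Pcdh7 lay above the 90th percentile of symbols of like level, 0.21 and 0.24. Pcdh1 was more abundant, at 30.4 FPKM in vehicle rats and 33.0 FPKM in CORT rats, with a log2 ratio of 0.12.

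The delta-2 class covered the same span at the lower end. Pcdh8, or arcadlin, an activity-induced protein that takes N-cadherin off the synaptic membrane, was at 20.6 FPKM in vehicle rats and 21.3 FPKM in CORT rats, a log2 ratio of 0.05. Pcdh10, which recruits actin regulators at cell contacts, was level at 14.5 FPKM in vehicle rats and 14.6 FPKM in CORT rats, and its log2 ratio of 0.0086 turned to -0.010 when centred on the median of all symbols. Pcdh17, a presynaptic protocadherin, and Pcdh19, the X-linked gene of an epilepsy that affects mainly girls, were at log2 ratios of 0.17 and 0.19. Pcdh18 was barely over the limit, at 1.11 FPKM in vehicle rats and 1.29 FPKM in CORT rats. Pcdh20, outside both classes, was at 18.4 FPKM in vehicle rats and 19.8 FPKM in CORT rats, a log2 ratio of 0.11. Of 10 markers of hippocampal neurons 7 were higher with CORT, with a median log2 ratio of 0.10. Among all symbols 54.6% were higher, and 60.3% of those between 20 and 50 FPKM. The median level of the markers, 117 FPKM, lies above that range, so the share is not one of like level. The markers summed to 3234 FPKM in vehicle rats and 3397 FPKM in CORT rats, and their part in the protocadherin levels was not tested.

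**Figure D3:**
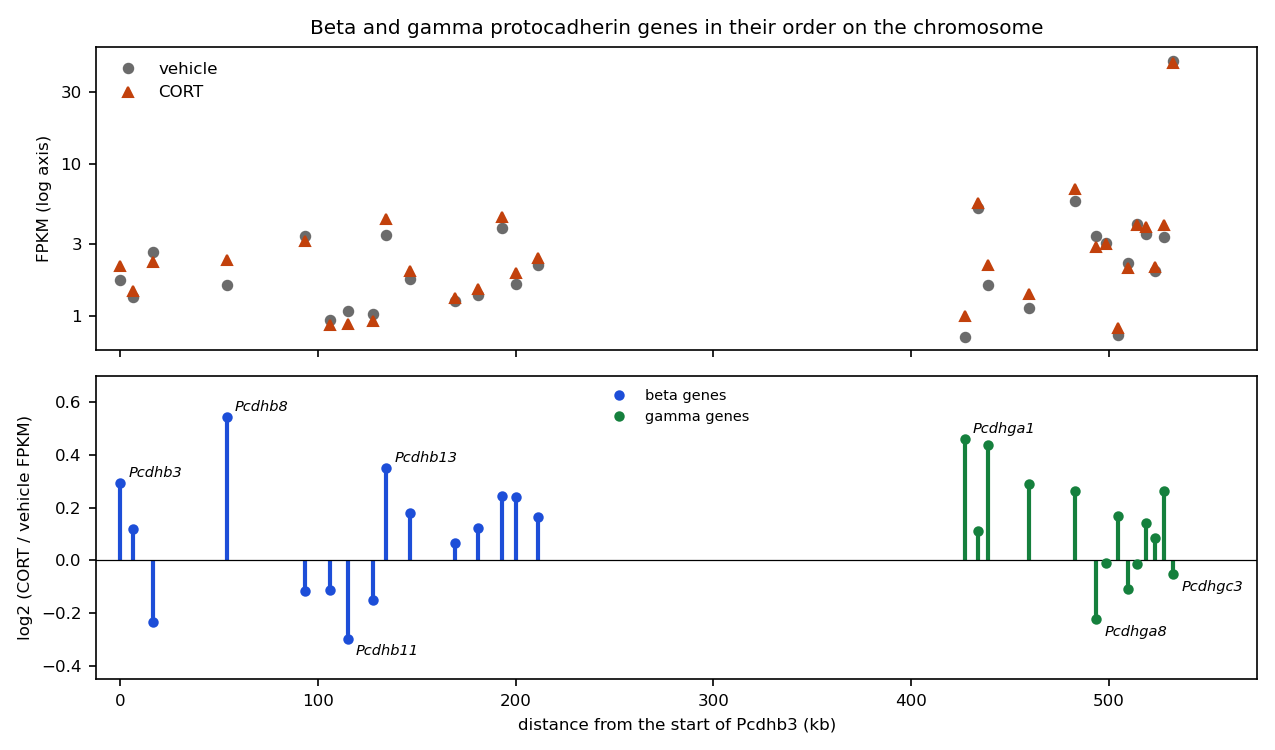
FPKM with vehicle (grey circles) and CORT (orange triangles, log axis) and log2 ratio of the 15 beta (blue) and 14 gamma (green) genes, by distance in kb from the start of Pcdhb3. Both clusters hold genes above and below 0, and Pcdhgc3 at the right end stands far above the others in level.

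The beta and gamma genes lie side by side on rn6 chr18:30381322-30969361, an extent of 588 kb. Apart from Pcdhb10 and Pcdhgc3, the loci are 2.32 to 3.38 kb long. With starts raised by 1, the length is a multiple of 3 for 21 of these 27, against 3 with starts as given. Most of the gene models may thus hold only the coding length of 1 variable exon and no UTR. The raised start was chosen by this same property, so the count is no separate evidence for it. These exons are close copies of each other, so the authors' correction for reads that map to several places may have split reads between neighbours, and every value of a single clustered gene is uncertain in that way.

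In the beta cluster the median log2 ratio was 0.14. Of the 14 genes over 1 FPKM 10 were higher with CORT, against 54.6% of all symbols. Their sum was 28.3 FPKM in vehicle rats and 31.2 FPKM in CORT rats. Pcdhb8 was at 1.60 FPKM in vehicle rats and 2.33 FPKM in CORT rats, a log2 ratio of 0.54 that became 0.36 with a pseudocount of 1 FPKM. Pcdhb13 was at 3.43 FPKM in vehicle rats and 4.37 FPKM in CORT rats, a log2 ratio of 0.35. Pcdhb19, the most abundant of the cluster, was at 3.80 FPKM in vehicle rats and 4.49 FPKM in CORT rats, a log2 ratio of 0.24. Pcdhb3 was at 1.74 FPKM in vehicle rats and 2.13 FPKM in CORT rats, a log2 ratio of 0.29. On the other side, Pcdhb11, Pcdhb5, Pcdhb12 and Pcdhb9 had log2 ratios of -0.30, -0.23, -0.15 and -0.12. Pcdhb11 passed the limit of 1 FPKM with vehicle only, at 1.09 FPKM, and was at 0.890 FPKM with CORT, and its ratio became -0.15 with a pseudocount of 1 FPKM. The genes Pcdhb9 to Pcdhb12, including Pcdhb10 below the limit, are neighbours and were all lower, whereas the 7 beta genes after them, from Pcdhb13 to Pcdhb22, were all higher, a run that was seen in the values and not sought beforehand. Of the 4 lower neighbours Pcdhb9 alone had at least 1 FPKM in both groups, since Pcdhb11 and Pcdhb12 passed through the vehicle value, the higher one, and the run is a description of low values. The plot by distance shows that run between 93.6 and 128 kb.

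In the gamma cluster 8 of 13 genes were higher with CORT, or 61.5%, against 54.6% of all symbols. The median log2 ratio was 0.11. Pcdhga1 was at 0.737 FPKM in vehicle rats and 1.01 FPKM in CORT rats, a log2 ratio of 0.46 that became 0.21 with a pseudocount of 1 FPKM. It was included only through its CORT value. Pcdhga3 was at 1.60 FPKM in vehicle rats and 2.17 FPKM in CORT rats, a log2 ratio of 0.44 that became 0.29 with a pseudocount of 1 FPKM. Pcdhga8 was at 3.36 FPKM in vehicle rats and 2.88 FPKM in CORT rats, a log2 ratio of -0.22 and the lowest of the cluster. Pcdhgc3, one of the C-type isoforms that many neurons and glia share, had a log2 ratio of -0.05. Its locus of 55.5 kb is the only gamma locus beyond 3.38 kb. All gamma variable exons are spliced onto constant exons at the end of the cluster, so the level of Pcdhgc3 may include reads of exons that the other gamma transcripts share. Its other transcript was at 3.26 FPKM in vehicle rats and 4.15 FPKM in CORT rats.

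The alpha cluster appears under the symbol Pcdhac1 only, with 10 transcripts that share the locus chr18:29987206-30215897 of rn6. The main transcript was at 12.4 FPKM in vehicle rats and 13.3 FPKM in CORT rats, a log2 ratio of 0.09. Of the 10 transcripts 8 were higher with CORT, against 54.6% of all symbols, with log2 ratios from -0.65 to 0.45. No filter was applied to these transcripts. Those at 0.778 and 0.803 FPKM in vehicle rats, and 0.994 and 0.864 FPKM in CORT rats, stayed under 1 FPKM in both groups. The transcript at -0.65, with 1.76 FPKM in vehicle rats and 1.12 FPKM in CORT rats, was the only one past 1.5-fold. Summed over transcripts, the alpha cluster was at 26.4 FPKM in vehicle rats and 29.1 FPKM in CORT rats, a log2 ratio of 0.14. Alpha transcripts share constant exons too, and how reads were divided between them is uncertain.

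The genes also fall into groups by position. The type II genes Cdh6, Cdh9, Cdh10, Cdh12 and Cdh18 lie on chromosome 2 of rn6 with Pcdh10 and Pcdh18. Of these 7, 6 were higher with CORT, against 54.6% of all symbols, with a median log2 ratio of 0.13. On chromosome 13, Cdh7 was higher and Cdh19 and Cdh20 were lower. On chromosome 19, which carries Cdh3, Cdh5, Cdh8, Cdh11, Cdh13 and Cdh15, 3 were higher and 3 lower. Other chromosomes are not listed, and no pattern by position was tested.

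**Figure D4:**
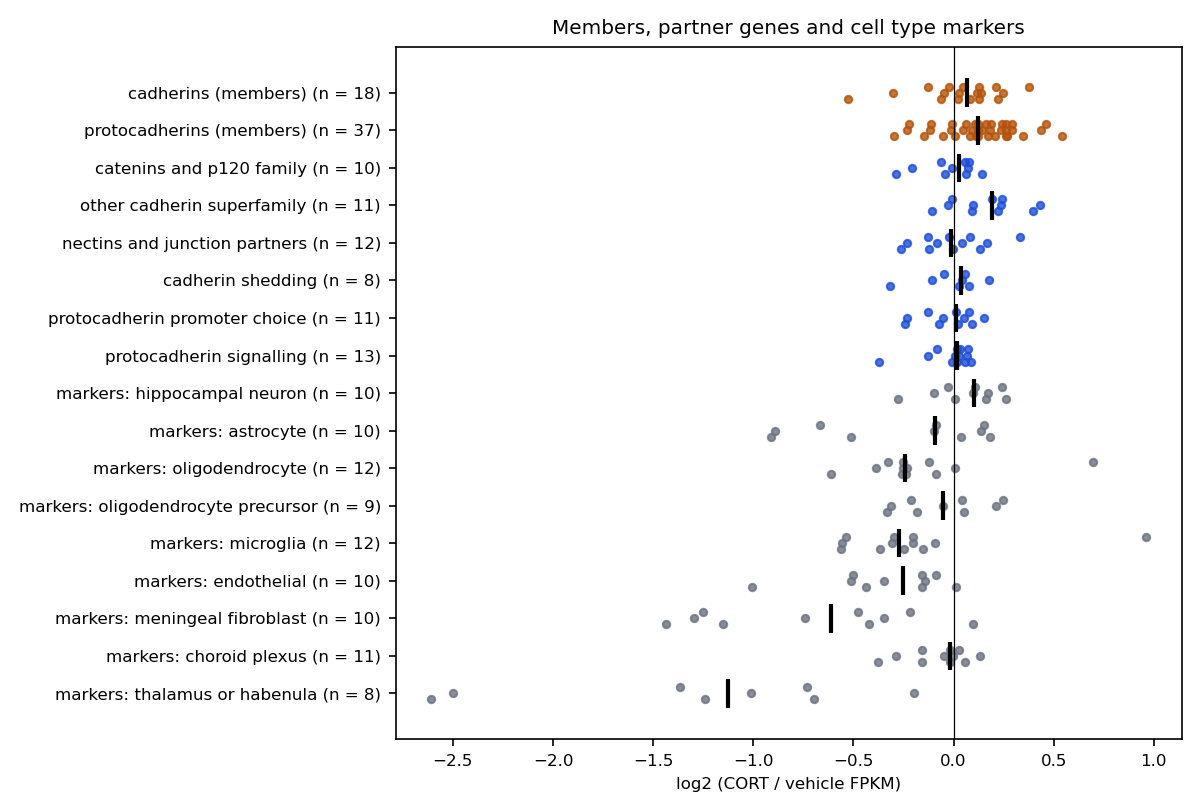
Log2 ratio of CORT over vehicle FPKM of single genes (points) and the median (black bar) for the cadherins and protocadherins (brown), their partner genes (blue) and cell type markers (grey), all at 1 FPKM or more in one or both groups. The members and partner lists lie close to 0, and the meningeal and the thalamic or habenular markers reach furthest below it.

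No gene of the partner lists was past 1.5-fold, against 5.51% of all symbols, and the list medians lay between -0.01 and 0.19. Beside the counts of these lists, 54.6% of all symbols were higher with CORT. The plot of lists gives each gene. Of 10 catenins and relatives 5 were higher with CORT, with a median log2 ratio of 0.03. Ctnnb1, beta-catenin, was at 120 FPKM in vehicle rats and 125 FPKM in CORT rats. The extremes were Jup, the plakoglobin of junctions, with 16.1 FPKM in vehicle rats and 13.2 FPKM in CORT rats, and Arvcf, with 12.1 FPKM in vehicle rats and 13.3 FPKM in CORT rats. Of 11 other members of the cadherin superfamily 8 were higher, with a median log2 ratio of 0.19, the highest of the partner lists. It holds the calsyntenins, postsynaptic proteins that promote synapse formation, and Clstn1 was at 259 FPKM in vehicle rats and 296 FPKM in CORT rats. Its extremes were Fat3, at 1.06 FPKM in vehicle rats and 1.43 FPKM in CORT rats, and Celsr1, with a log2 ratio of -0.11.

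Of 12 nectins and junction partners 5 were higher, with a median log2 ratio of -0.01, from Vcl (vinculin) at -0.26 to Actn1 (an actinin) at 0.33. Of 8 genes for the proteases that shed cadherins 5 were higher, with a median of 0.03, and Adam17 was the lowest at -0.32. The regulators of protocadherin promoter choice, CTCF, cohesin and DNA methylation genes, were 6 of 11 higher with a median of 0.01, from Stag1 at -0.24 to Dnmt3a at 0.15. The kinases and actin regulators that act below protocadherins were 9 of 13 higher with a median of 0.02, from Marcks at -0.37 to Cyfip2 at 0.09.

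The thalamic or habenular and the meningeal marker lists had medians further from 0 than the ratio of any cadherin or protocadherin. Of 9 thalamic or habenular markers with a row, 8 were lower with CORT, with a median log2 ratio of -1.01 over the 9, and Rora, under 1 FPKM in both groups, was higher. Of these, 3 (Chrna3, Gpr151 and Chrnb4) passed the limit of 1 FPKM through the vehicle value alone, and the 5 with at least 1 FPKM in both groups were lower with a median of -0.73. The 8 that passed in one or both groups had a sum of 55.4 FPKM in vehicle rats and 33.0 FPKM in CORT rats. Of 10 meningeal fibroblast markers 9 were lower, with a median of -0.61 and a sum of 188 FPKM in vehicle rats and 138 FPKM in CORT rats. Choroid plexus markers had a median of -0.02, with 8 of 11 lower, against 45.4% of all symbols. They summed to 7013 FPKM in vehicle rats and 6972 FPKM in CORT rats. Ttr alone was at 6605 FPKM in vehicle rats and 6598 FPKM in CORT rats, so the sum mostly restates that gene. Microglial markers were lower in 11 of 12 cases, with a sum of 400 FPKM in vehicle rats and 335 FPKM in CORT rats, and astrocyte markers in 6 of 10, with a median of -0.09. The astrocyte sum was 3093 FPKM in vehicle rats and 2693 FPKM in CORT rats, but without Gfap the other 9 summed to 2123 FPKM in vehicle rats and 2176 FPKM in CORT rats. Cdh11, which fibroblasts of the meninges also express, had a log2 ratio of -0.06 beside these. None of the 93 markers with a row was at 0 in either group, and their part in the levels of cadherins and protocadherins was not tested.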

How the data were processed

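RNAseq of 8 whole hippocampi from ADX rats was used, 4 with vehicle and 4 with CORT, grouped by the treatment label. Per the labels and the submitters' processing notes, CASAVA 1.8.2, TopHat2 2.0.10 and Cuffdiff 2.2.0 were used with rn6. The authors deposited FPKM values, 1 per group for each of 16266 Ensembl transcripts, normalized geometrically between libraries, with corrections for multiple mapping, sequence bias and effective length and a minimum alignment count of 10. The table also holds the authors' own fold changes, test statistics, p-values and q-values, which were not used. Depth per library is unknown.

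For symbols with several transcripts, the most abundant over both groups was taken. Log2 ratios of CORT over vehicle were computed without a pseudocount, for symbols that reached 1 FPKM in one or both groups. A gene was counted as past a fold at 1.5-fold, and that share of all symbols is the background. No test was run, because there is 1 value per group. Start coordinates were raised by 1, since only then were coding lengths mostly multiples of 3.

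The genes named are those past 1.5-fold, the 5 largest log2 ratios on each side and the 5 highest levels among Cdh and among Pcdh genes, and the extremes of each partner list, of which 1 is not reported here. Other genes were named after their values were seen. The members and lists were chosen with earlier results of these data known. Of the listed genes, Cdh1, Cdh16, Cdh17, Cdh23, Cdh26, Pcdh11x and Pcdh12 were not analysed here. Promoters came from RefSeq (GRCr8) and were matched by symbol, and their coordinates cannot be set beside those of rn6. The computations were tested on simulated data and made in Python 3.11.15 (pandas 2.3.3, numpy 2.4.6, with plots by matplotlib 3.10.9). Alternatives were other filters, pseudocounts, folds, centring, class definitions and the sum over transcripts.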

Additional observations from a re-analysis of the deposited data

How the results depend on the processing

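With the threshold lowered to a difference of 25% over the lower group value, 6 genes were past it in place of 0, and with 2-fold or under the other filters, pseudocounts, centring or summing of transcripts 0 genes were past the threshold. With 5 FPKM required in one or both groups, 22 genes remained to compare and 18 were higher with CORT, in place of 40 of 55. The count fell because fewer genes were tested, and the share did not fall. Among all symbols 52.8% were higher between 5 and 10 FPKM, 57.3% between 10 and 20 FPKM and 60.3% between 20 and 50 FPKM. The median log2 ratio lay between 0.02 and 0.07 for classical cadherins and between 0.10 and 0.17 for protocadherins over 8 alternatives each, and their difference between -0.12 and -0.06 over 9. The log2 ratio of Pcdh10 was reversed from 0.0086 to -0.010 when centred on the median of all symbols. Of the other values for single genes, 6 moved by at least 0.1 and 101 did not. With a pseudocount of 1 FPKM, Cdh5 was at -0.40, Pcdhb11 at -0.15, Pcdhb8 at 0.36, Pcdhga1 at 0.21 and Pcdhga3 at 0.29, since a pseudocount shrinks ratios of low values, and Cdh13 was at 0.27 with its transcripts summed. In a comparison added after seeing the data, the median of the thalamic or habenular markers was -0.73 with 1 FPKM required in both groups and -1.01 with no filter, in place of -1.13. Leaving out each rat was not run, because 1 value per group was used. No paired analysis was possible because only group values, without numbers for rats, were used. Without depth or a spread between rats, no limit of detection can be given, and small ratios may lie within the variation between rats.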

Other observations

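The beta genes with the octamer GTGGCGCT in their promoter and the beta and gamma genes without it were set side by side after the values were seen. All genes with the octamer were beta genes, and of those without it only Pcdhb15 was. The split is thus nearly one of beta against gamma genes, and octamer and cluster cannot be told apart here. Genes that reached 1 FPKM in one or both groups were used, among all symbols of which 54.6% were higher with CORT. The 9 with the octamer had a median log2 ratio of 0.18, from -0.23 to 0.54, and 6 of them were higher. Among them Pcdhb12 passed through its vehicle value alone. The 11 without it had a median of 0.11, from -0.22 to 0.46, and 8 of them were higher. The ratio of 0.46 is that of Pcdhga1, which passed through its CORT value alone. With Pcdhb10 and Pcdhga9, which stayed under that level, the medians were 0.15 for 10 genes and 0.14 for 12. Outside the clusters, the octamer was found in 1 of 11 Cdh promoters, that of Cdh15, and in 0 of 9 non-clustered protocadherin promoters.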
